A study of Mus musculus with 68 samples.

Results

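The genes described here encode 10 proteins that bind polyoma virus middle T, or that join the complex it builds, in mouse cells: the Src family kinases Src, Yes1 and Fyn, the adaptor Shc1, the phosphoinositide 3-kinase (PI3K) subunits Pik3r1 and Pik3ca, the phospholipase Plcg1, the protein phosphatase 2A (PP2A) subunits Ppp2r1a and Ppp2ca, and the 14-3-3 protein Ywhaz. They were chosen by name, as 10 of the 18194 genes that could be named from a probe set with a gene symbol of its own, and not by their values. Their 38 probe sets, of 45101 on the array, were all read, and a gene is given by whichever of them had the highest mean. All 10 genes passed the filter on dim genes, which kept 12562 genes whose 95th percentile lay above the median of all values.

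The RNA came from spontaneous mammary tumours of MMTV-PyMT mice, in which a mammary tumour virus promoter drives middle T in mammary epithelium. The animals were bred by crossing NZB mice to the PyMT line and the offspring back to FVB. Ages are not given in the sources used here. Of 68 Affymetrix arrays, 56 with a mean of the 18S ribosomal RNA control probe sets below 8 were used, 1 for each of 56 animal numbers. All 56 form 1 group with the transgene, without normal mammary gland or tumours of another origin to set beside them. Transcript levels were measured, whereas binding to middle T and phosphorylation were not, and the transgene's own level was not analysed here.

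Middle T has no enzyme activity of its own. It sits in membranes, takes up the scaffold and catalytic subunits of PP2A, and through them holds and activates Src, Yes or Fyn. The kinase then phosphorylates tyrosines on middle T, which become docking sites for Shc (towards Ras and ERK), for the p85 subunit of PI3K (towards Akt) and for phospholipase C gamma, while a phosphorylated serine binds 14-3-3 proteins. Mouse studies with mutated middle T have shown that the Shc and PI3K docking sites are needed for rapid mammary tumour formation.

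The epithelial origin of the tissue was visible in every array. Over the 56 arrays, the lowest level was 11.12 for Epcam, 11.90 for Krt8, 11.82 for Krt18 and 10.73 for Cdh1, on the log2 scale of the deposited values with a median of 5.42 over all values. Marker lists of other cells varied widely between tumour pieces, with an array mean over 14 skeletal muscle genes between 4.0 and 12.09 and over 9 adipocyte genes between 6.24 and 10.52. The arrays also formed sets that the labels do not name, found as splits that many probe sets on many chromosomes shared exactly. Array set 3 held 9 of the used arrays, array set 4 held 8 and array set 1 the other 39, while array set 2 is the 12 arrays left out. All 8 used arrays with the letter R after the animal number, which is not explained, were in array set 3. Array set 4 had animal numbers from 4950 to 5000, a range that held arrays of the other sets too. Because of these sets, correlations are given over the 56 arrays after centring each array set (within sets). The pooled value is printed for some pairs only, and it can differ where it is not printed. The 4 arrays of animals 2421, 3290, 3853 and 3854 stood apart within their sets, with the lowest array weights in limma (0.284 to 0.434, against a median of 1.11), and the partner and score pairs whose calls ended without them are given with both values. These 4 were singled out after their removal was seen to end calls. The array of animal 3739 had the next lowest weight, 0.444, close to theirs, and was kept.

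PP2A and the Src kinases are the base of the complex, and the start regions of 4 of these genes are shown because pairs described further on involve them: Ppp2r1a and Ppp2ca, set beside the genes of their own chromosomes, and Fyn and Plcg1, the pair of partners with the highest r within sets. Each run covers 250 bases before and 50 after the annotated start (RefSeq, GRCm38.p6). Capitals mark the Sp1-type box GGGCGG, called the GC box here, and an ETS core, CCGGAAGT. They also mark the cyclic AMP response element TGACGTCA and the box of the letters CCAAT. Each was searched on both strands.
Ppp2r1a promoter, chr17:20945204-20945503, plus strand: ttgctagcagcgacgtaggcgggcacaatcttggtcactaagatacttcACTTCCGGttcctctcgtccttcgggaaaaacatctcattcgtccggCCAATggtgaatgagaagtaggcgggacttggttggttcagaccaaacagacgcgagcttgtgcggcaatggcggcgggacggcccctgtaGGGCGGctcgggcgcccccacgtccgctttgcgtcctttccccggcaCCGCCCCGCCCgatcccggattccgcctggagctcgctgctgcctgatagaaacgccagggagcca
Ppp2ca promoter, chr11:52098574-52098873, plus strand: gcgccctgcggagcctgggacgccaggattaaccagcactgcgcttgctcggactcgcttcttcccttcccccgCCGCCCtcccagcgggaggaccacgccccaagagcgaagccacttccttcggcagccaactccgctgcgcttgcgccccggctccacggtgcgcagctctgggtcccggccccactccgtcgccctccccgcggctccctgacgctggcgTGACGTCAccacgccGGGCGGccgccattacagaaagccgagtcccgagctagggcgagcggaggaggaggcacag
Fyn promoter, chr10:39369549-39369848, plus strand: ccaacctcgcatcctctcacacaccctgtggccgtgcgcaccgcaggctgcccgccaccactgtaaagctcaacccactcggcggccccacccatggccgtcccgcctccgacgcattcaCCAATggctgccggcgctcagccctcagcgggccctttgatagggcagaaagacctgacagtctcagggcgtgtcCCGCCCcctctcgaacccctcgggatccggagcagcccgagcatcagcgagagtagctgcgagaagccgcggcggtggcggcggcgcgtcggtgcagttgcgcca
Plcg1 promoter, chr2:160731060-160731359, plus strand: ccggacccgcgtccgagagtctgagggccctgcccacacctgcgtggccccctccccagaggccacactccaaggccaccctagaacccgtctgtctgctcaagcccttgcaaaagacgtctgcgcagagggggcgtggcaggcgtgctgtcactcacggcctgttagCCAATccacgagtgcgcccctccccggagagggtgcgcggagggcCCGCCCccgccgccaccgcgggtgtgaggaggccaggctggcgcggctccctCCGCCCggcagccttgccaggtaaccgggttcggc

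All 4 windows held a GC box, which 35.7% of 32851 promoter windows of the same length hold. The last capitals of the Ppp2r1a window are 2 GC boxes that share 1 base. The CCAAT box occurred in Ppp2r1a, Fyn and Plcg1 and in 37.4% of all windows. An ETS core was present in Ppp2r1a and in 3.89% of all windows, and the cyclic AMP element in Ppp2ca and in 1.79%. GC content was 62% for Ppp2r1a, 71.7% for Ppp2ca, 69.0% for Fyn and 72.0% for Plcg1, against a median of 52.7% over all windows. RefSeq windows were at hand for 9 of the 10 genes, all but Ywhaz. These matches describe letters in a window and not occupied sites.

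By the chosen probe sets, Ppp2ca was the steadiest of the partners within array sets, followed by Ywhaz and Ppp2r1a. Ppp2ca, which encodes the alpha form of the catalytic subunit, ran over 56 arrays between 11.07 and 11.53 with a median of 11.20 (log2). Its SD within array sets was 0.085, at the 0.533rd percentile of the 12562 genes, each by its own highest-mean probe set. This low spread belongs to the chosen probe set. Ppp2ca probe sets with lower means, 8.65 and 5.45, had SDs within sets of 0.268 and 0.188. Those of the other Ywhaz probe sets ran from 0.142 to 0.321. Ppp2r1a, the alpha form of the scaffold subunit to which middle T binds, ran between 11.58 and 12.37 with a median of 11.93 and an SD within sets of 0.12. Both lay high on the array in every tumour, although levels of different probe sets cannot be set against each other. In the 12 arrays left out, Ppp2ca stood at 10.28 ± 0.17 and Ppp2r1a at 12.77 ± 0.17 (SD, n = 12), outside the range of the 56 arrays in opposite directions.

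Among the kinases, by the chosen probe sets, Src was the most and Yes1 the least dependent on the array set. Src ran from 6.99 to 8.77 with a median of 7.48. In array set 4 it stood at 8.56 ± 0.13 (SD, n = 8), against 7.40 ± 0.16 in array set 1 (n = 39), a difference of 1.16 with ranges that did not overlap. Yes1 ran from 7.88 to 8.63 with a median of 8.15, and its SD was 0.15 both over all arrays and within sets. A Yes1 probe set with a lower mean averaged 6.68, 6.20 and 6.88 in array sets 1, 3 and 4, and another averaged 6.38, 6.70 and 5.90. Fyn ran from 6.71 to 7.94 with a median of 7.46, and stood at 7.07 ± 0.36 in array set 3 (n = 9) against 7.45 ± 0.24 in array set 1. The other Fyn probe set differed in the opposite direction, averaging 6.99 in array set 3 and 6.72 in array set 1.

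The proteins that dock on phosphorylated middle T differed in how far their transcripts spread. Shc1, the adaptor that passes the signal to Grb2 and Ras, ran from 7.21 to 9.11 with a median of 8.18. It averaged 7.51 ± 0.18 in array set 3 (SD, n = 9) and 8.85 ± 0.22 in array set 4 (n = 8), against 8.16 ± 0.20 in array set 1 (n = 39). Pik3r1, which encodes the regulatory p85 alpha subunit, ran from 9.29 to 10.74 with a median of 10.25. It averaged 9.69 ± 0.37 in array set 4, against 10.23 ± 0.27 in array set 1, with overlapping ranges. Pik3ca, the catalytic p110 alpha subunit, ran from 7.52 to 9.14 with a median of 7.92. It averaged 8.86 ± 0.19 in array set 3, against 7.90 ± 0.28 in array set 1, where 3 arrays of those that stood apart reached 8.52 to 8.90. Plcg1, which cleaves a membrane phosphoinositide into second messengers, ran from 7.93 to 8.79 with a median of 8.37. Ywhaz, the zeta form of the phosphoserine-binding 14-3-3 proteins, ran from 11.32 to 11.90 with a median of 11.55.

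**Figure D1:**
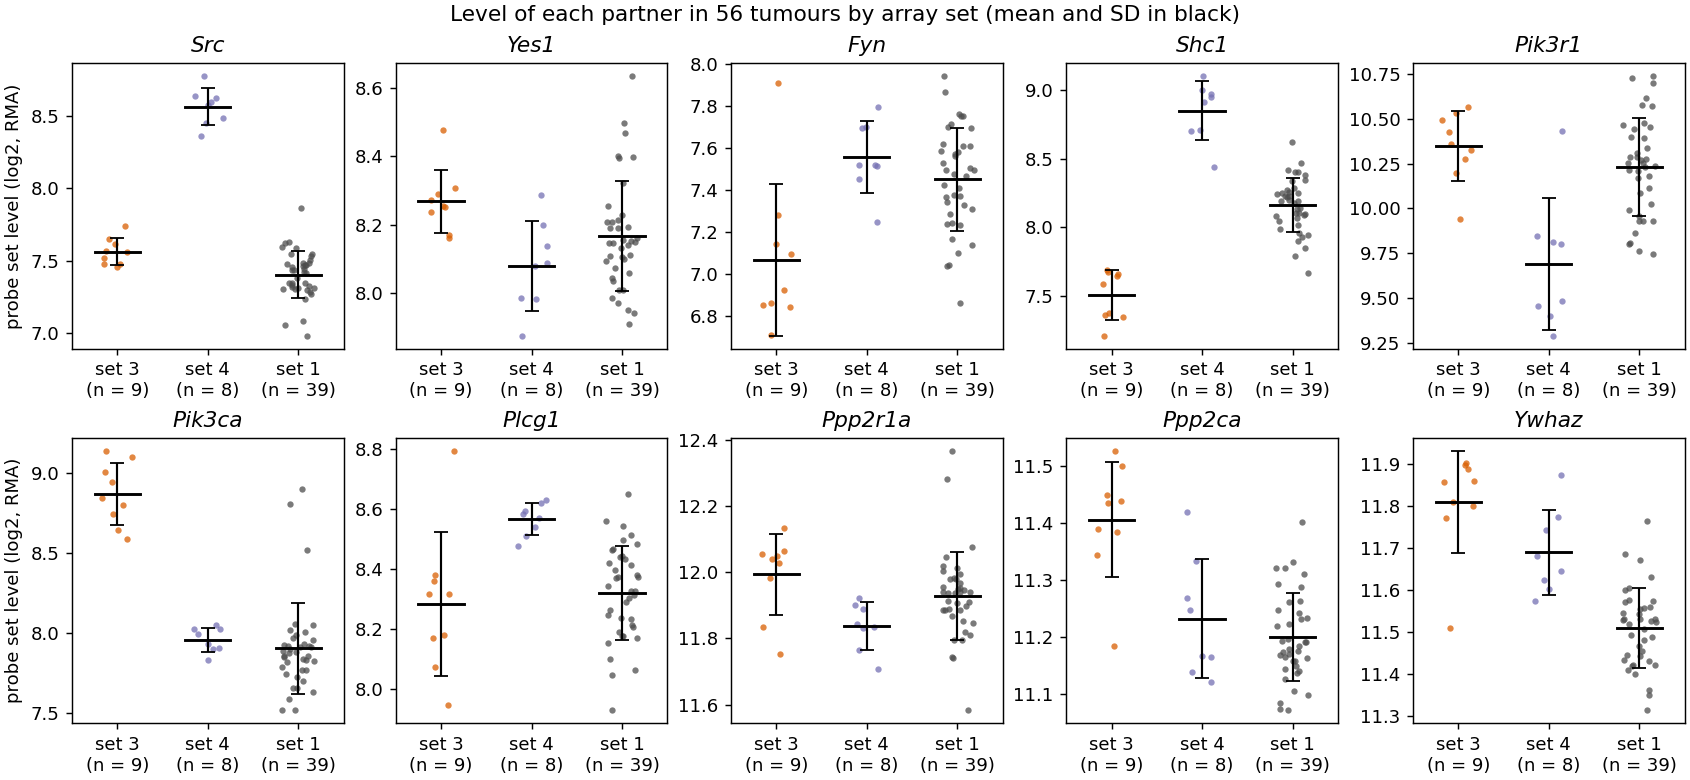
Level of each partner (log2, RMA) in 56 tumours, 1 point per array, in array sets 3, 4 and 1, with the mean and SD in black. Each panel has its own axis. Src of array set 4 lies between 8.36 and 8.77, above all 39 arrays of array set 1. By its chosen probe set, Pik3ca is highest in array set 3.

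In array set 3, 2 of the 10 partners, Shc1 and Pik3ca, lay over 0.5 from array set 1, as did 6.5% of all tested genes, and 0 of 10 had ranges that did not overlap (0.995% of all genes). In array set 4, 3 partners, Src, Shc1 and Pik3r1, lay over 0.5 away (8.22% of genes) and 1, Src, did not overlap (2.44%). The sets were found in the same values, so these counts are a description, and what the sets differ in was not tested. Once the sets were centred, the median SD of the 10 partners was 0.157, against 0.193 over all tested genes. Before centring it was 0.240 against 0.227.

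The other probe sets of a gene did not always follow the one chosen. Both probe sets of Src moved together within sets (r = 0.746), as did those of Fyn (0.665) and Shc1 (0.795). Of 5 probe sets for Ppp2r1a, the other 4 correlated with it at 0.639 to 0.972, and of 4 for Pik3r1 the other 3 at 0.404 to 0.908. Ywhaz was the exception among the abundant partners. Of its 7 probe sets, 2 ran against the chosen one both over all arrays (r = -0.54 and -0.59) and within sets (-0.15 and -0.21). For Yes1, 1 of 3 other probe sets ran against the chosen one within sets (-0.278), and both other probe sets of Plcg1 lay below the filter. For Pik3ca, the other probe sets above the filter correlated with the chosen one within sets at 0.721, 0.670, 0.450 and 0.289. Those at 0.721 and 0.670 were also higher in array set 3 than in array set 1. Those at 0.450 and 0.289 were lower there (5.83 against 5.97, and 6.06 against 6.23), with pooled r of 0.068 and -0.005. Results for Ywhaz, Yes1 and Pik3ca therefore hold for the named probe set.

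The partners did not rise and fall together as a unit. Within array sets, 5 of their 45 pairs were called, meaning that the larger of the adjusted p-values of both directions (gene A fitted on B, and B on A) was under 0.05 in limma with Benjamini-Hochberg adjustment over all tested genes. Counted in both directions, 11 of 90 fits between partners were called, or 12.2%, against an average of 13.8% of all genes over the 10 fits, so that partners were called with each other about as often as any genes were. The share of all genes called ran from 7.40% with Fyn and 8.34% with Shc1 over 9.08% with Ppp2ca, 9.97% with Ywhaz, 11.4% with Plcg1, 11.7% with Src, 13.3% with Yes1, 17.4% with Ppp2r1a and 20.4% with Pik3r1 to 29% with Pik3ca. The median r of the 45 pairs was 0.0691, and 35 of them had an r under 0.3 in size. Without the 4 arrays that stood apart, 1 pair was called, and it was none of the 5. Without animal 2421, 3290 or 3854 alone, 3 pairs were called.

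Of the 5 called pairs, 3 shared Fyn. Fyn and Plcg1 gave r = 0.529 and Spearman's rho = 0.504 (permutation p = 0.00031 and 0.00018, two-sided, within sets, n = 56), with an adjusted p of 0.00485 in limma. The call ended without the array of animal 3854, where both genes were far up, and r was 0.351 without the 4 arrays. Fyn and Ppp2r1a gave r = 0.472 and rho = 0.463 (permutation p = 0.00038 and 0.00049), with an adjusted p of 0.0164 in limma. No removal of 1 array ended this call, and r was 0.405 without the 4 arrays, with an adjusted p of 0.113. Pooled, r was 0.235. Yes1 and Fyn gave r = -0.426 and rho = -0.347 (permutation p = 0.00067 and 0.0093), with an adjusted p of 0.0302 in limma. That call ended without animal 2421, whose tumour was highest in Yes1, r was -0.367 without the 4 arrays (adjusted p of 0.156), and over the 6 combinations of their probe sets only 3 had a negative r.

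The other 2 called pairs involved Pik3ca and rested on few tumours. Src and Pik3ca gave r = -0.496 but rho = -0.219 (permutation p = 0.00041 and 0.107), with an adjusted p of 0.00505 in limma. Animals 2421, 3290 and 3853 had Src at 7.08, 6.99 and 7.06 and Pik3ca at 8.52, 8.80 and 8.90, while r was 0.0221 without the 4 arrays. Pik3ca and Ywhaz gave r = 0.373 and rho = 0.114 (permutation p = 0.00452 and 0.398), with an adjusted p of 0.0498 in limma, a call that 39 of the 56 removals of 1 array ended, and r was 0.0217 without the 4 arrays. Over the 35 combinations of their probe sets, 24 had a positive r, and r ran from -0.518 to 0.555. Pik3ca also moved with the mean of the 18S control probe sets within sets (r = -0.572), and the part of that in its results was not tested. Leaving out the 2 arrays farthest from the median of the gene named before the other left r at 0.369 for Fyn and Plcg1, 0.459 for Fyn and Ppp2r1a, -0.312 for Yes1 and Fyn, -0.466 for Src and Pik3ca and 0.177 for Pik3ca and Ywhaz.

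Several partners that act in 1 complex did not pass the test. The PI3K subunits Pik3r1 and Pik3ca gave r = 0.314 and rho = 0.455 (permutation p = 0.0151 and 0.00037), with an adjusted p of 0.0775 in limma. Without the 4 arrays r was 0.447 with an adjusted p of 0.0193, the 1 pair then called. The PP2A subunits Ppp2r1a and Ppp2ca gave r = 0.305 and rho = 0.250 (permutation p = 0.0195 and 0.064), with an adjusted p of 0.153 in limma. Src correlated with Yes1 at -0.259, with Fyn at -0.0364 and with Shc1 at 0.175. Ignoring the array sets changed these figures, since 14 of the 45 pairs had opposite signs pooled and within sets. Src and Shc1 gave 0.583 pooled, and Pik3ca and Ywhaz 0.688.

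**Figure D2:**
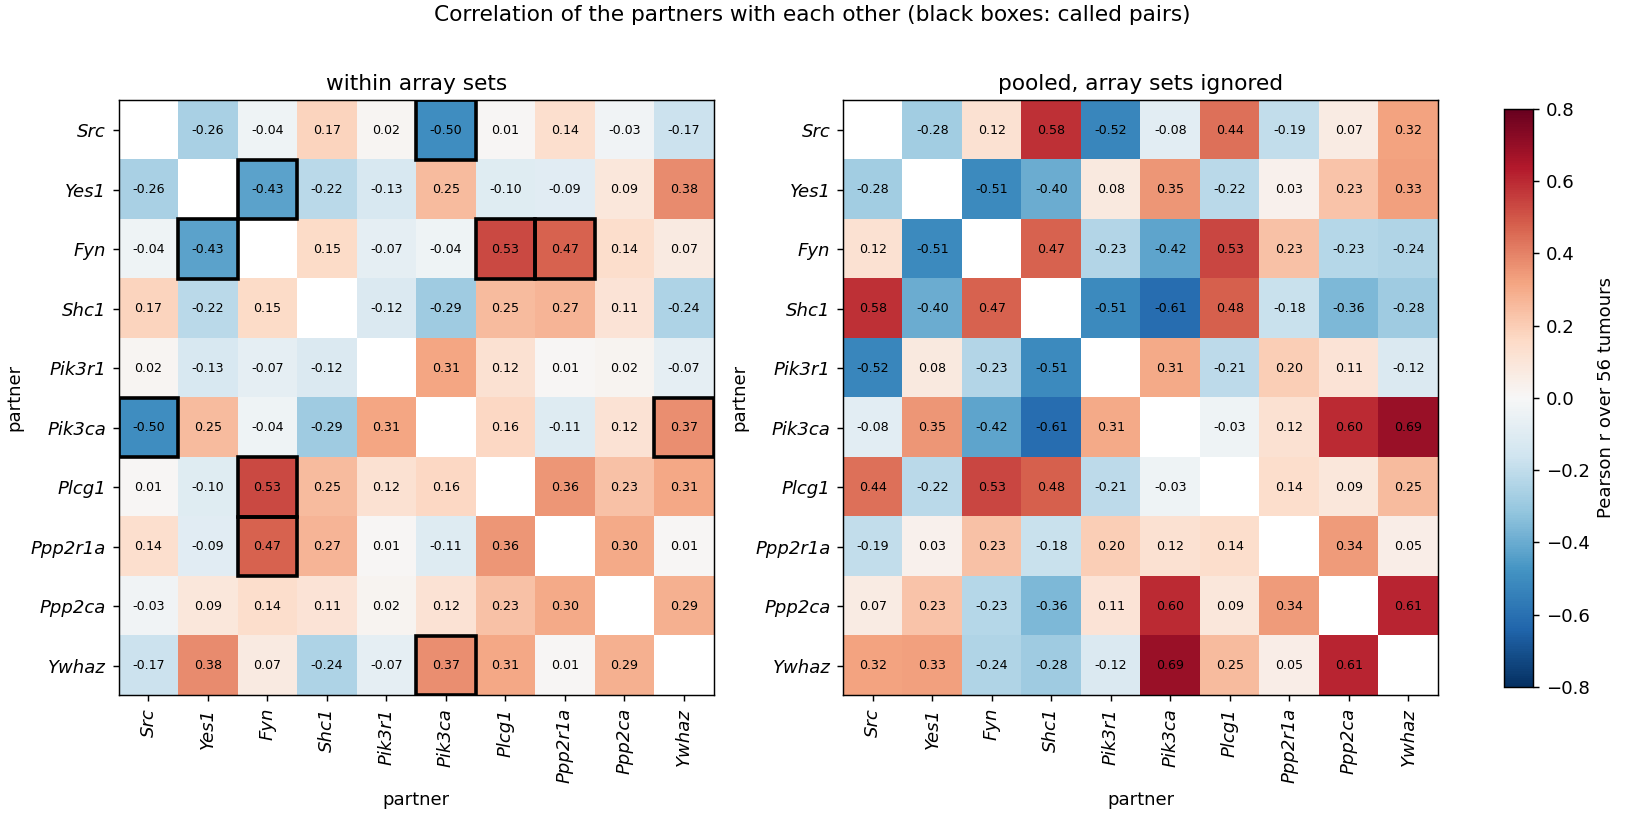
Pearson correlation of each pair of partners over 56 tumours, within array sets (left, with the 5 called pairs in black boxes) and pooled (right). For many pairs the pooled value lies further from 0, as for Shc1 and Pik3ca at -0.609 pooled and -0.286 within sets. For others it lies closer to 0, as for Src and Pik3ca at -0.0842 pooled and -0.496 within sets.

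**Figure D3:**
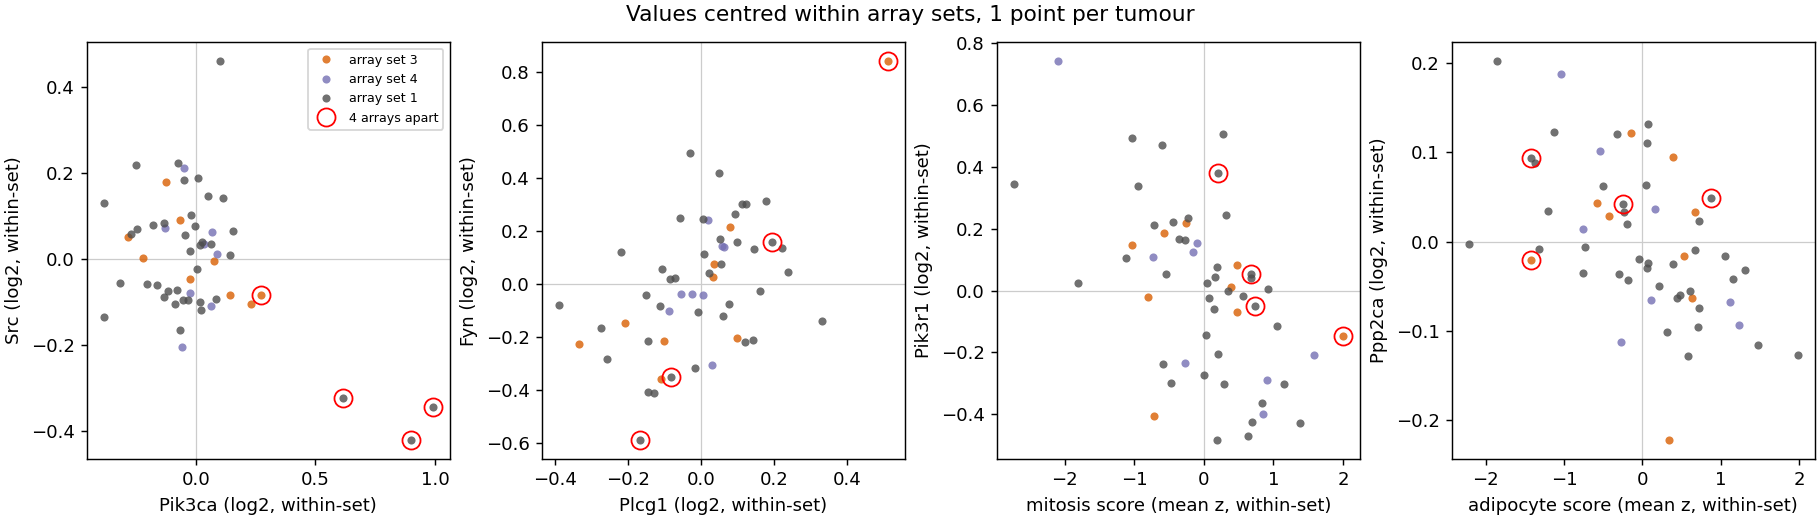
Values centred within array sets, 1 point per tumour (n = 56): Src against Pik3ca, Fyn against Plcg1, Pik3r1 against the mitosis score and Ppp2ca against the adipocyte score. Red rings mark the 4 arrays that stood apart, which carry the negative slope of Src and Pik3ca (r = -0.496 with them, 0.0221 without) and not that of Pik3r1 and mitosis (-0.542 with them, -0.575 without).

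How far each partner followed the makeup of the tumour piece was asked with 11 marker list scores, each the mean z-score of its genes. Of 110 pairs of a partner and a score, 16 were called in limma (Benjamini-Hochberg adjusted p under 0.05), 2 positive and 14 negative. That is 14.5% of the pairs, against an average of 17.5% of all genes over the 11 scores. The share of all genes called was 2.53% with the basal score, 5.78% with B and plasma cell, 10.5% with squamous and skin, 10.8% with epithelium, 11.3% with skeletal muscle, 19.8% with adipocyte, 21.3% with fibroblast and matrix, 26% with macrophage and with T and NK cell, 26.8% with endothelium and 32.1% with mitosis. Without the 4 arrays, 11 were called, all among the 16. In bulk tumour RNA, fewer cells of a type and less RNA per cell cannot be told apart.

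Pik3r1 fell with the mitosis score, the mean of 19 genes such as Cdk1 and Plk1 that are expressed in dividing cells. The correlation within sets was -0.542 and rho was -0.534 (permutation p = 6e-05 and 4e-05, n = 56), with an adjusted p of 0.000196 in limma, where 12.7% of all genes fell with this score. All 4 of its probe sets had a negative r, from -0.580 to -0.446. The value was -0.500 in array set 1 (n = 39), -0.197 in array set 3 (n = 9) and -0.867 in array set 4 (n = 8). It was -0.440 without the 2 arrays farthest from the median of the mitosis score. Pik3r1 moved within sets with the Gapdh 3' minus 5' difference, a measure of RNA quality (r = 0.437), and with that difference in the model the value was -0.504 with an adjusted p of 0.000885. Pik3r1 also rose with the macrophage score (r = 0.402, adjusted p of 0.0132 in limma, against 14.2% of genes rising), a call that ended without animal 4958. That call was lost with the Gapdh difference in the model (r = 0.337, adjusted p of 0.0541) and in array set 1 alone (0.265, adjusted p of 0.251).

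By their chosen probe sets, the PP2A subunits fell with some of the scores of stromal and other non-epithelial tissue. Ppp2r1a fell with 6 of the 11 scores: skeletal muscle (r = -0.528), adipocyte (-0.480), fibroblast and matrix (-0.437), macrophage (-0.432), endothelium (-0.414) and T and NK cell (-0.378), with adjusted p-values in limma from 0.00242 to 0.0286. Of all genes, 4.71% fell with the skeletal muscle score, 8.05% with adipocyte, 9.26% with fibroblast and matrix, 11.7% with macrophage, 13.2% with endothelium and 13.9% with T and NK cell. All 5 Ppp2r1a probe sets had a negative r with each of these 6 scores. The value nearest 0 was -0.302 for skeletal muscle, -0.196 for adipocyte and -0.108 for macrophage. It was -0.0856 for T and NK cell, -0.0406 for endothelium and -0.0378 for fibroblast and matrix. The tumour of animal 3739 had the highest Ppp2r1a (12.37) and a fibroblast score of -2.47. Without it, the correlations with the fibroblast and endothelium scores came to -0.277 and -0.280 and were no longer called, and that with the T and NK cell score was lost without animal 3547 and without the 4 arrays (r = -0.371, adjusted p of 0.0527). Skeletal muscle, macrophage and adipocyte were called under each removal of 1 array. With array weights, however, all but skeletal muscle lost the call (r from -0.361 for macrophage to -0.320 for endothelium, -0.340 for adipocyte, adjusted p from 0.056 to 0.0959). With the mean of all probe sets, macrophage, fibroblast, endothelium and T and NK cell lost it (adjusted p from 0.0641 to 0.167), so that skeletal muscle alone was called under all 11 settings.

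Ppp2ca fell with the adipocyte score (r = -0.534, rho = -0.549, permutation p = 5e-05 and 4e-05, adjusted p of 0.00184 in limma) and with the endothelium score (r = -0.464, rho = -0.566, permutation p = 0.00026 and 2e-05, adjusted p of 0.00813). Both calls held under each removal of 1 array and without the 4 arrays, where r was -0.563 and -0.472. By the chosen probe set these changes were small, since its whole range over 56 tumours was 1.37-fold. Another Ppp2ca probe set ran more widely, from 7.96 to 9.55. Ywhaz fell with the endothelium score as well (r = -0.422, adjusted p of 0.015 in limma), but 1 of its 7 probe sets had an r of 0.207 with it. The call ended without the 4 arrays (r = -0.365, adjusted p of 0.0626) and with the mean of all probe sets (-0.312, adjusted p of 0.0835). Plcg1 and the endothelium score (r = -0.341, adjusted p of 0.0463 in limma) lost the call under 18 of 56 removals and without the 4 arrays (r = -0.244, adjusted p of 0.223).

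Of the Src kinases, Yes1 fell with the fibroblast and matrix score (r = -0.463, rho = -0.390, permutation p = 0.00049 and 0.00315, adjusted p of 0.00524 in limma), and r was -0.492 without the 4 arrays. Other Yes1 probe sets above the filter gave -0.205 and -0.160 with this score. Yes1 also fell with the macrophage score (r = -0.377, adjusted p of 0.026 in limma), a call that ended without animal 3296 or 3853 and with the Gapdh difference in the model (r = -0.345, adjusted p of 0.0533). Src rose with the epithelium score (r = 0.441, adjusted p of 0.0191 in limma, against 6.4% of genes rising), and its other probe set gave 0.367. Without animal 3290 or 3853 the call ended, and r was 0.262 without the 4 arrays, which ranked among the 5 lowest epithelium scores. Pik3ca fell with the epithelium score (r = -0.419 but rho = -0.105, adjusted p of 0.0235 in limma, against 4.37% of genes falling), and r was 0.0907 without the 4 arrays. In limma, Fyn and Shc1 were called with 0 of 11 scores, while 2 of the 11 with Fyn and 0 with Shc1 had an unadjusted permutation p under 0.05.

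**Figure D4:**
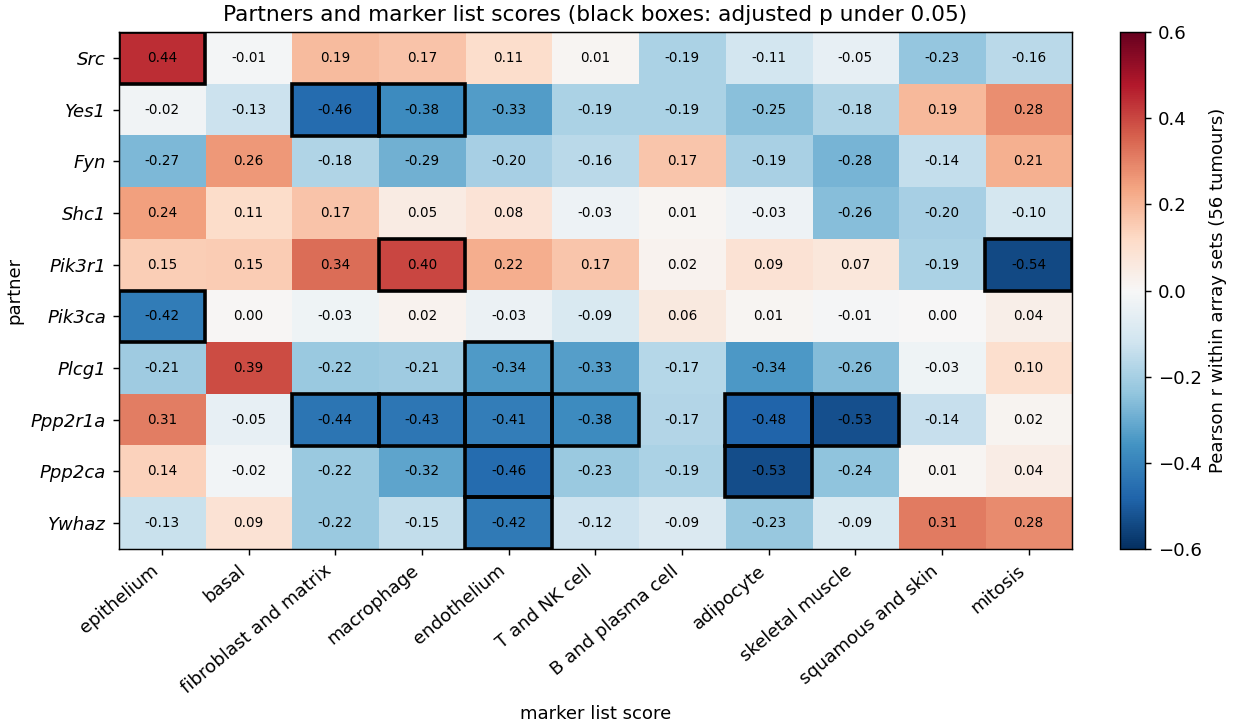
Pearson correlation within array sets of each partner (rows) with 11 marker list scores (columns) over 56 tumours, with the 16 called pairs in black boxes. Ppp2r1a has 6 boxes, all negative, and Pik3r1 with mitosis is the lowest value at -0.542.

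The other genes of each branch were read from lists set beside the partner that acts in it. Of 174 such pairs, 28 were called in limma, 22 rising and 6 falling, 10 were called without the 4 arrays and 17 without animal 2421 alone. With Src, 2 of 9 Src family regulators rose (6.48% of all genes did): Csk, the kinase that phosphorylates the inhibitory tail tyrosine of Src kinases (r = 0.412), and the substrate Bcar1 (0.372). With Yes1, 1 of 9 fell, the myeloid kinase Fgr (r = -0.417, against 4.57% of genes falling), and with Fyn 1 of 9 rose, the phosphatase Ptpn1 (0.463, against 4.96%). None of these 4 was called without the 4 arrays.

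In the branch from Shc to ERK, 2 of 12 genes rose with Shc1, the kinases Araf (r = 0.507) and Map2k2 (0.405), against 6.79% of all genes. Of 15 genes that respond to ERK, 3 rose with Shc1: the transcription factor Etv5 (r = 0.505) and the feedback inhibitors Dusp6 (0.499) and Spred2 (0.413). Dusp6, a phosphatase of ERK, had r = 0.488 and an adjusted p of 0.0095 in limma without the 4 arrays, while the calls of the other 4 ended there. Pooled, Shc1 and Dusp6 gave 0.0643. With Src, 1 of the 15 rose, Etv5 (0.376), against 6.48% of all genes. This call held in 3 of 11 settings, ended under 7 of the 56 removals, and was lost without the 4 arrays (r = 0.331, adjusted p of 0.533). Of 11 Hippo pathway genes, 2 rose with Yes1, the coactivator Yap1 (0.475), whose name stands for Yes-associated protein, and the kinase Lats1 (0.471), against 8.69% of all genes, and 1 rose with Src, Tead2 (0.407). Those 3 calls ended without the 4 arrays.

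The PI3K branch gave 9 calls of 15 with Pik3ca, 5 rising and 4 falling, where 18.1% of all genes rose and 10.9% fell. The highest were Pdpk1, the kinase that activates Akt (r = 0.688), and Rictor, a subunit of the second mTOR complex (0.579), while Akt1 (-0.492) and Akt2 (-0.446) fell. Without the 4 arrays, Pdpk1 stood at 0.407 with an adjusted p of 0.0389 in limma, Rictor at 0.266, Akt2 at -0.145, and Akt1 had the opposite sign at 0.156. Taking the mean of all probe sets turned Pdpk1 to -0.198 and Rictor to -0.199. Pooled, Pdpk1 stood at 0.171 and Rictor at -0.134. With Pik3r1, 1 of 15 rose, Tsc1, which restrains mTOR (0.468, adjusted p of 0.00659 in limma, against 10.8% of genes), and it was called without the 4 arrays too (0.476).

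Of 20 other PP2A subunits and regulators, 3 rose with Ppp2r1a, against 10% of all genes. These were the regulatory subunits Ppp2r5e (r = 0.460), Strn4 (0.452) and Ppp2r2a (0.391), and all 3 were called without the 4 arrays. With Ppp2ca, 0 of 20 rose in limma (3 at an unadjusted p under 0.05), against 5.76% of all genes, and 1 fell, the regulatory subunit Ppp2r5a (r = -0.430, against 3.32% of all genes falling). With Plcg1, 1 of 7 phospholipase and protein kinase C genes rose, the calcium channel Itpr3 (0.383, against 8.71%), and this ended without the 4 arrays. With Ywhaz, 0 of 6 other 14-3-3 genes were called in limma (1 at an unadjusted p under 0.05), while 8.27% of all genes rose with it.

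The genes most like each partner, named here, were not on the pathway lists set beside it. Each list held only 6 to 20 of the 12562 tested genes, so this absence says nothing about the partners. By Pearson r within sets over 56 arrays, the genes most like Src were Chpf (0.725), Lrp10 and Btbd2. Those most like Yes1 were Swt1 (0.686), Zbtb44 and Ddx10, and those most like Fyn were 2310022B05Rik (0.709), Snn and Slc12a7. Shc1 was most like Ifngr2 (0.783), Tmem9 and Pfn1, Pik3r1 like Cflar (0.768), Pnisr and Acer3, and Pik3ca like Pggt1b (0.843), Zfp644 and Brwd1. Plcg1 was most like Odf2 (0.667), Ccng2 and Ltbp1, and Ywhaz like Eif4g2 (0.706), Rpl7 and Snrpe. Odf2 lay on chromosome 2, as Plcg1 does. For the PP2A subunits most of these genes lay on the subunit's own chromosome. Ppp2ca, on chromosome 11, was most like Rpl19 (0.800, pooled 0.283), Zkscan17 (0.777, pooled 0.551) and Canx (0.751, pooled 0.139), all 3 on chromosome 11. Ppp2r1a, on chromosome 17, was most like Zbtb22 (0.790, pooled 0.605) and Bag6 (0.728, pooled 0.244), both on chromosome 17, and Pwwp2a (0.726, pooled 0.729) on chromosome 11.

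That observation led to a reading by chromosome, chosen after the values were seen. The median r of Ppp2ca within sets was 0.276 with the 1077 other tested genes of chromosome 11 and 0.0176 with the 11463 genes elsewhere, and 34.2% of the genes of chromosome 11 rose with it in limma, against 3.10% elsewhere. The median was 0.362 over the 159 genes within 10 Mb of it and 0.235 over the 607 genes of the chromosome more than 30 Mb away. For Ppp2r1a it was 0.230 with the 623 genes of chromosome 17 and 0.0326 elsewhere, and 33.1% rose with it, against 8.81% elsewhere. Without the 4 arrays, these medians were 0.299 for Ppp2ca and 0.269 for Ppp2r1a, and in array set 1 alone they were 0.284 and 0.207. The relation reached across both chromosomes and was present within 1 array set.

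Over 20 chromosomes, the own chromosome ranked first by median r for 3 partners, Ppp2ca, Ppp2r1a and Pik3ca (chromosome 3, median r 0.183 against 0.0377 elsewhere). The same held for 17% of 12538 tested genes, for 62.3% of those on chromosome 11, for 36.5% of those on chromosome 17 and for 43.3% of those on chromosome 3. The excess of the own chromosome over the rest of the genome was 0.258 for Ppp2ca and 0.198 for Ppp2r1a, at the 99.6th and 98.1st percentile of all genes, and at the 95.8th and 97.4th percentile among genes of the same chromosome. For Pik3ca it was 0.145 (94.2nd percentile of all genes and 84.4th among genes of chromosome 3), and without the 4 arrays it was 0.0534 (79.9th percentile of all genes) with chromosome 3 ranked 2 of 20. The own chromosome ranked 2 of 20 for Pik3r1 (excess 0.0731, 82.8th percentile of all genes), and 1 in array set 1 alone. For Fyn it ranked 3 of 20 (excess 0.0433, 71.2nd percentile), and 9 without the 4 arrays. For Src, Yes1, Plcg1, Shc1 and Ywhaz the own chromosome ranked between 8 and 18 of 20. Without the 4 arrays these ranks moved, to 4 for Shc1, 6 for Src, 9 for Yes1 and 19 for both Plcg1 and Ywhaz. Copy number was not measured, and the part of chromosome gain or loss in these values was not tested. The part of NZB and FVB chromosome segments, which differ between animals of this cross, was not tested either.

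**Figure D5:**
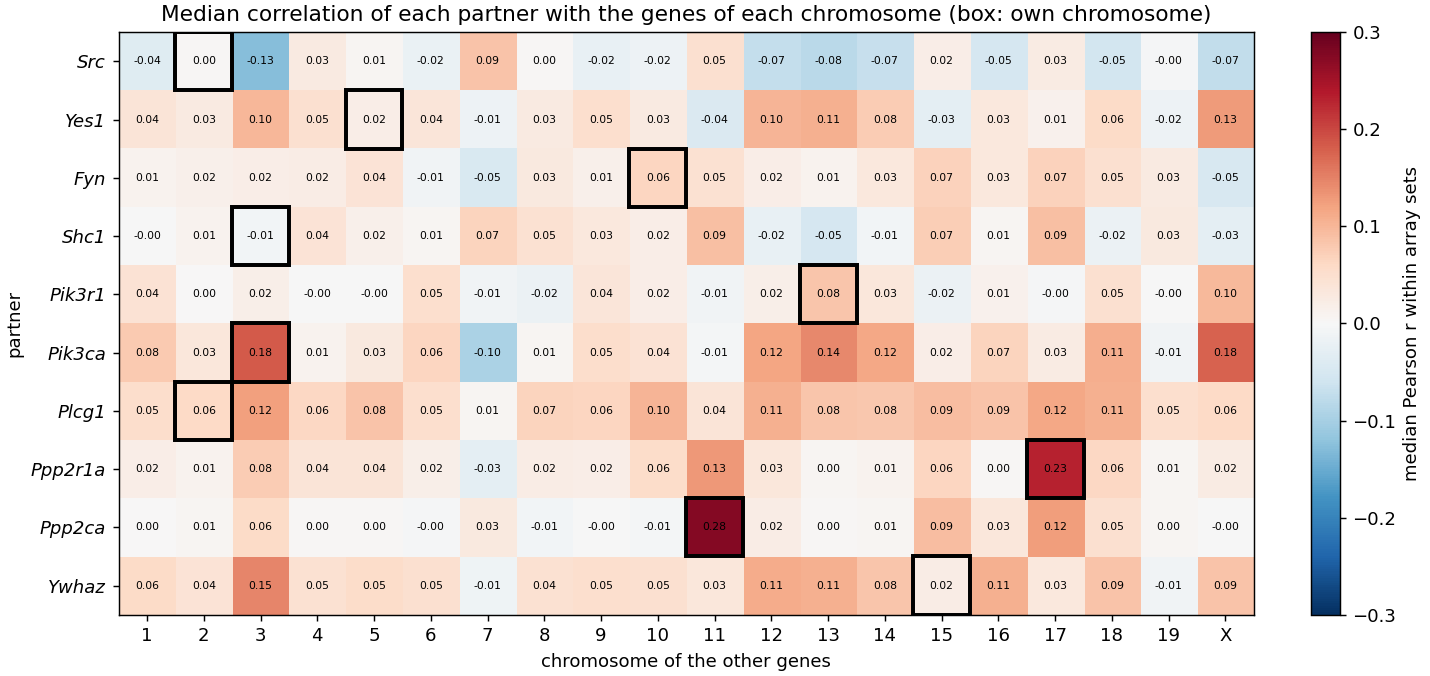
Median Pearson r within array sets of each partner (rows) with the tested genes of each chromosome (columns), over 56 tumours, with the partner's own chromosome boxed. Ppp2ca with chromosome 11 (0.276) and Ppp2r1a with chromosome 17 (0.230) are the highest 2 values.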

How the data were processed

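Tumour RNA was isolated with Trizol followed by RNeasy columns and biotin-labelled, per the labels' protocols. The deposited values of 68 arrays were read as log2 from their range, 1.68 to 14.57, and were made with RMA by the authors, per the submitters' processing notes. Version, settings and whether all arrays were normalised together are not given in the sources used here. The number of arrays limits the precision.

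Of 45101 probe sets, 34958 had 1 gene in the platform annotation, 932 had several and 9211 were not listed, and 34754 were found in the RefSeq gene table (GRCm38.p6), which served for names, chromosomes and distances only, since the array's build is not named. Antisense or overlapping transcripts were not separated.

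Arrays with an 18S mean below 8 (5.03 to 6.84 in the 56 used, 8.97 to 10.16 in the 12 left out) were kept. An array set is a split of the arrays that 20 or more probe sets on 10 or more chromosomes shared exactly. Ashman's D, which scales the gap between both means by the pooled spread, had to exceed 4.5, with no fewer than 15% of arrays on either side. Set 3 was defined by 44 probe sets and set 4 by 121.

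For each partner and each score, every tested gene was fitted on the standardised value with array set as a block (limma 3.58.1 in R 4.3.3, lmFit and eBayes). Adjusted p-values are Benjamini-Hochberg values over all tested genes, leaving out the gene or list itself. Pearson's r and Spearman's rho were computed on set-centred values, with 100000 permutations within array sets. "Rose" and "fell" mean called at an adjusted p under 0.05 with r above or below 0. The fit was tested on simulated data. The named genes are the 10 partners, the 3 genes most alike to each, and up to 4 called genes per list by size of r. The partners, lists, array sets and tests were chosen with earlier results of these data known. Lists hold named genes only, 13 of 18 for Shc to ERK, for example, and the rest were not analysed here.

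The alternatives were no array set block, array set 1 only, all 68 arrays, the mean of all probe sets, no filter, a stricter filter (median above 5.42), the Gapdh 3' minus 5' difference as a covariate, array weights, the 2 arrays with the highest 18S mean left out, each array left out in turn, and the 4 arrays that stood apart left out. The last 2 were chosen after seeing the data.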

Additional observations from a re-analysis of the deposited data

How the results depend on the processing

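Counts of called partner pairs (5 as reported) were 16 without the array set block, 2 in array set 1 only, 1 with array weights and 1 without the 4 arrays that stood apart, and 3 to 6 when each array was left out in turn (3 without animal 2421, 3290 or 3854). Pairs of a partner and a score (16) numbered 8 with array weights and 13 to 19 with each array left out. Pathway genes (28) numbered 61 without the block, 12 with array weights, 10 without the 4 arrays and 17 to 30 with each array left out. These 3 counts moved by less than 1.5 times under every other alternative run. Without the block, 14 of all 45 partner pairs had the opposite sign. Among the pairs followed under each alternative, the sign of r turned as follows. With the mean of all probe sets, r was 0.000345 for Yes1 and Fyn, -0.00789 for Ppp2r1a and Ppp2ca, -0.198 for Pik3ca and Pdpk1, -0.199 for Pik3ca and Rictor and -0.186 for Shc1 and Spred2. Without the block, it was 0.121 for Src and Fyn, -0.0398 for Fyn and Ptpn1, 0.189 for Pik3ca and Pik3cd and -0.134 for Pik3ca and Rictor. Without the 4 arrays, it was 0.0221 for Src and Pik3ca, 0.0563 for Src and Yes1, -0.105 for Src and Shc1, 0.0907 for Pik3ca and epithelium, 0.0235 for Pik3ca and Pik3r2 and 0.156 for Pik3ca and Akt1. The cause was not tested. The pairs called under all 11 settings (the reported one and 10 alternatives, single removals aside) were Pik3r1 with mitosis, Ppp2ca with adipocyte and endothelium, Ppp2r1a with skeletal muscle and Yes1 with fibroblast and matrix. With 1 group of tumours, no paired analysis was possible because no groups were compared. Splits of the arrays that fewer probe sets share would not be found, and signal over background was not used here.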
